A study of Mus musculus with 12 samples.

Results

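The 10 genes described here encode the cytosolic thioredoxin system, the peroxide-removing enzymes it serves, and enzymes that supply or use NADPH: Txn1, Txnrd1, Prdx1, Srxn1, Cat, Nqo1, G6pdx, Pgd, Taldo1 and Me1. They were taken by name from 43432 gene identifiers in the deposited tables, as genes known to be controlled by the transcription factor NRF2. All 10 were found and were among the 12705 genes tested. The list was chosen with earlier results of these data known. Counts of its genes called, set beside the share of all genes, are therefore a description and not independent support. RNA was sequenced from BV2 cells, an immortalized mouse microglial line, in 6 groups of 2 libraries. The untreated group received neither LPS nor compound. The other groups all received lipopolysaccharide (LPS, the bacterial endotoxin sensed by TLR4) at 100 ng/mL, either alone or 1 h after 6-gingerol or 6-shogaol at 10 or 30 µM. Serum had been withdrawn from the cells 4 h or more before a compound was given. No group received a compound without LPS, so every effect of a compound is an effect in LPS-stimulated cells. The interval from LPS to harvest is not stated. Nothing says that the 2 libraries of a group came from separate cultures, and p-values therefore measure only the spread between these samples, which may be technical.

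As background, thioredoxin is a small protein that reduces disulfides in other proteins, and thioredoxin reductase returns it to its active form with electrons from NADPH. Peroxiredoxins break down hydrogen peroxide and are recharged by thioredoxin, and sulfiredoxin repairs peroxiredoxin that has been over-oxidized. NADPH comes from the pentose phosphate pathway and from malic enzyme, among other sources. NRF2 is held at low levels by KEAP1 until electrophiles or oxidants modify KEAP1, after which NRF2 binds antioxidant response elements in the promoters of these genes. In microglia and macrophages the same NADPH pool also feeds the NADPH oxidase and nitric oxide synthase that LPS-activated cells use. 6-Gingerol and 6-shogaol are related ginger phenols: 6-shogaol has an α,β-unsaturated ketone, and 6-gingerol has a hydroxyl group at that place and no double bond.

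Library totals ran from 16534960 to 21179867 expected counts, mean fragment lengths from 223 to 252 bases and the share of mitochondrially encoded mRNA from 5.0% to 6.91%. Of 15 microglia and macrophage markers, 12 had a mean level of at least 1 TPM (transcript abundance per length, scaled to a common library total) in every group. Their summed level was 2683 to 2750 CPM (counts scaled to a common library total, not per length) in untreated libraries and 2931 to 3221 CPM in the LPS-treated ones. Of the homeostatic microglial markers, Sall1 had 0 counts in every library, and P2ry12 and Cx3cr1 did not exceed 0.33 and 0.255 TPM. Tmem119, another such marker, was detected, with group means from 1.655 to 3.195 TPM. Of 6 markers each, none of the neuron, astrocyte, and lymphocyte and neutrophil lists reached 1 TPM in any group, and 1 oligodendrocyte marker did in 1 group. In the fibroblast and endothelial list 1 of 6 reached 1 TPM in each group, and its summed level was 124.7 to 165.2 CPM with no separation of the 30 µM 6-shogaol libraries (128.3 to 134.4 CPM) from LPS (128.4 to 131.4 CPM). In such bulk libraries, a change in the share of cells expressing a gene and a change in RNA per cell cannot be told apart.

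Per length, Prdx1 and Txn1 were the most abundant of these genes. In LPS-treated cells Prdx1, a cytosolic peroxiredoxin, stood at 1559 ± 44.1 TPM (SD, n = 2, as for all values with ± below) and Txn1, thioredoxin itself, at 408.7 ± 33.0 TPM. Taldo1, the transaldolase of the non-oxidative pentose phosphate branch, followed at 262.5 ± 1.21 TPM, and G6pdx, glucose-6-phosphate dehydrogenase, the entry enzyme of that pathway, at 102.9 ± 1.41 TPM. The next 3 were 6-phosphogluconate dehydrogenase (Pgd, 69.7 ± 1.51 TPM), catalase (Cat, 63.6 ± 2.74 TPM) and thioredoxin reductase 1 (Txnrd1, 62.2 ± 8.96 TPM). The spread of Txnrd1 covered both of the others, so their order is not resolved. Sulfiredoxin (Srxn1) was at 44.7 ± 1.54 TPM and malic enzyme 1 (Me1) at 12.6 ± 1.31 TPM. Nqo1, the NAD(P)H quinone dehydrogenase that is widely used as a reporter of NRF2, was nearly absent at 0.215 ± 0.0495 TPM. With 30 µM 6-shogaol the order of the first 2 places was unchanged, with Prdx1 at 3387 ± 277 TPM and Txn1 at 596.1 ± 45.6 TPM, and Nqo1 was still last at 0.865 ± 0.0212 TPM.

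**Figure D1:**
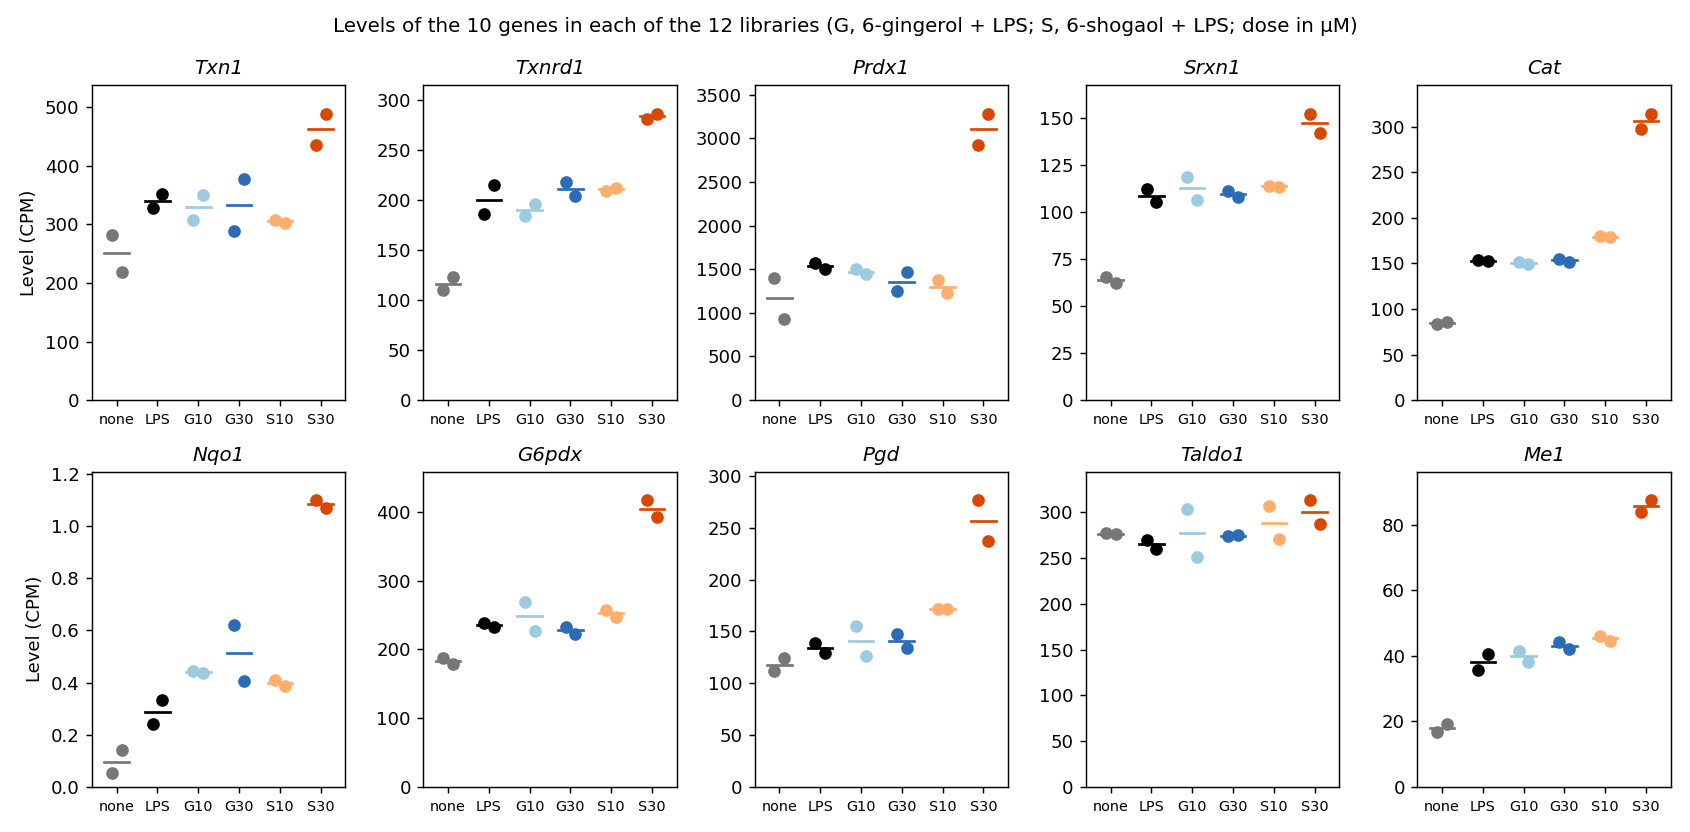
Level of each gene in CPM (vertical axis, from 0) in the 12 libraries by group; points are libraries and horizontal lines are means of 2 (G, 6-gingerol; S, 6-shogaol). In 9 of the 10 genes both libraries with 30 µM 6-shogaol lie above every other library, and in Taldo1 the groups overlap. How many of all tested genes show this ordering was not counted.

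The comparison of LPS with untreated cells asked what the stimulus alone did to these genes. Of the 10 genes 5 rose and 0 fell, where 11.8% of all tested genes were called, 7.66% higher and 4.16% lower. Scaling by library totals gave 785 higher and 688 lower genes in place of 973 and 528. Me1, which makes NADPH from malate, rose most among the called genes, from 16.8 and 19.1 CPM in the 2 untreated libraries to 35.7 and 40.7 CPM with LPS. On the log2 scale this was 1.09 (SE 0.11) at an adjusted p of 6.12e-06. Cat, which degrades hydrogen peroxide in peroxisomes, went from 83.7 and 86.2 CPM to 153.3 and 152.2 CPM (log2 difference 0.85, SE 0.09, adjusted p = 5.38e-06). The reductase Txnrd1 rose from 109.7 and 123.1 CPM to 185.7 and 215.2 CPM (0.78, SE 0.10, adjusted p = 6.48e-05). Sulfiredoxin (Srxn1) rose from 65.7 and 62.5 CPM to 112.1 and 105.3 CPM (0.76, SE 0.09, adjusted p = 4.02e-05). The 2 untreated and 2 LPS libraries did not overlap in any of the 10 genes, called or not. The LPS libraries were the lower ones in Taldo1 and the higher ones in the other genes. How many of all tested genes separate in this way was not counted. That separation therefore does not set these 4 genes apart. G6pdx was higher by a smaller margin, at 237.8 and 232.9 against 187.9 and 178.4 CPM (0.36, SE 0.10, adjusted p = 0.0297). That call was lost without untreated replicate 2, LPS replicate 1 or LPS replicate 2, at adjusted p = 0.068, 0.171 and 0.134. It was also lost with library totals (0.052) and with the compared groups alone (0.0761).

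The other 5 genes did not pass the edgeR test with LPS, and for the substrates of the system, Txn1 and Prdx1, the call depended on the processing. Txn1 was at 282.5 and 218.2 CPM in untreated cells and 328.2 and 352.1 CPM with LPS (log2 difference 0.44, 95% interval 0.14 to 0.75, adjusted p = 0.0567). Prdx1 was at 1398 and 932.9 CPM in untreated cells and at 1568 and 1498 CPM with LPS (0.40, 0.05 to 0.74, adjusted p = 0.135). DESeq2 called both, at adjusted p = 0.0121 for Txn1 and 0.0428 for Prdx1, as did edgeR without the count filter (0.00399 and 0.00934), and Txn1 also passed with DESeq2's size factors in edgeR (0.0454). Both genes were higher in untreated replicate 1 than in replicate 2, whose mean fragments were 227 and 248 bases long. Without untreated replicate 1 the LPS differences were 0.64 for Txn1 and 0.72 for Prdx1, at adjusted p = 0.00612 and 0.00195. With fragment length as a covariate Txn1 passed (0.37, adjusted p = 0.0375) and Prdx1 did not (0.35, adjusted p = 0.147). Pgd, the second NADPH-producing step of the pentose phosphate pathway, differed by 0.19 (-0.06 to 0.43) and Taldo1 by -0.06 (-0.30 to 0.17). Nqo1 had 1 and 3 expected counts in the untreated libraries and 4 and 7 with LPS, too few to resolve a change (1.52, 0.04 to 3.00, adjusted p = 0.189).

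With 6-gingerol no change from LPS alone was detected in these genes at either dose. In edgeR 0 of the 10 genes were called at 10 µM and 0 at 30 µM, where 0% of all tested genes were called at either dose (243 and 189 genes had an unadjusted p under 0.05). No member reached an unadjusted p under 0.05 at either dose (0 and 0 genes), and DESeq2 also called 0 members at each. At 30 µM, Txnrd1 was at 218.0 and 203.9 CPM, within 0.07 of LPS on the log2 scale (95% interval -0.14 to 0.29). Srxn1 was at 111.1 and 108.3 CPM (0.01, -0.18 to 0.21), and Cat at 155.2 and 151.6 CPM (0.01, -0.17 to 0.19). The widest of these intervals reached 0.29 on the log2 scale. Me1 differed by 0.17 (-0.05 to 0.40), G6pdx by -0.05 (-0.27 to 0.17) and Pgd by 0.07 (-0.18 to 0.31). For Nqo1, at 8 to 12 counts per library, the differences of 0.58 (-0.54 to 1.71) at 10 µM and 0.80 (-0.29 to 1.88) at 30 µM leave its change unresolved. Prdx1 was at 1253 and 1464 CPM (-0.17, -0.52 to 0.17) and Txn1 at 288.7 and 377.1 CPM (-0.03, -0.33 to 0.27). In the 30 µM 6-gingerol pair, too, the library with the shorter fragments (223 against 249 bases) had more Txn1 and Prdx1. Within the LPS and 10 µM 6-gingerol pairs Txn1 was also higher in the library with the shorter fragments, whereas in the 30 µM 6-shogaol pair it was higher in the one with the longer fragments. Prdx1 was higher in the library with the longer fragments in all 3 of those pairs. With fragment length as a covariate the difference of 30 µM 6-gingerol from LPS was 0.03 for Txn1 and -0.13 for Prdx1, neither called.

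At 10 µM of 6-shogaol, 0 of the 10 genes were called in edgeR, where 0.638% of all tested genes were called, 0.063% higher and 0.575% lower. DESeq2 also called 0 members, and 3 members had an unadjusted p under 0.05: Cat, Pgd and Me1. Cat was at 179.5 and 179.2 CPM, above both LPS libraries (log2 difference 0.23, 95% interval 0.05 to 0.41, adjusted p = 0.338). Pgd was at 171.1 and 171.3 CPM against 139.1 and 129.5 CPM (0.35, 0.10 to 0.60, adjusted p = 0.279), and Me1 at 46.2 and 44.6 CPM (0.25, 0.02 to 0.48, adjusted p = 0.426). A fit of the LPS and 10 µM 6-shogaol libraries alone called 2 of them, Pgd (adjusted p = 0.00675) and Cat (adjusted p = 0.0412). G6pdx differed from LPS by 0.10 (-0.11 to 0.32) and Taldo1 by 0.12 (-0.11 to 0.36). In the thioredoxin arm the differences of Prdx1 and Txn1 were -0.24 (-0.58 to 0.10) and -0.16 (-0.46 to 0.15). Those of Txnrd1 and Srxn1 were 0.07 (-0.14 to 0.28) and 0.07 (-0.13 to 0.26).

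At 30 µM of 6-shogaol, 9 of the 10 genes rose above LPS and 0 fell, where 25.4% of all tested genes were called, 12.6% higher and 12.8% lower. The median log2 fold change of the 10 genes was 0.86, against -0.002 over all tested genes. In the thioredoxin arm, Prdx1 rose from 1568 and 1498 CPM to 2919 and 3282 CPM (log2 difference 1.02, SE 0.16, adjusted p = 0.000337). Txnrd1 rose less, to 280.6 and 286.4 CPM (0.50, SE 0.10, adjusted p = 0.002), and so did Srxn1, to 152.5 and 142.4 CPM (0.44, SE 0.09, adjusted p = 0.00264). Both 30 µM libraries were above both LPS libraries in each of these genes, an ordering that was not counted over all tested genes. Txn1 reached 435.8 and 489.2 CPM (0.44, SE 0.14, adjusted p = 0.0322). The Txn1 call rested on all 4 libraries of the comparison: without LPS replicate 1 or 2 the adjusted p was 0.18 and 0.0932, and without 6-shogaol replicate 1 or 2 it was 0.0531 and 0.186. With fragment length as a covariate the Txn1 difference was 0.57 (adjusted p = 0.00156) and that of Prdx1 was 1.10 (adjusted p = 8.76e-05).

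Cat stood at 297.8 and 314.2 CPM with 30 µM 6-shogaol (log2 difference from LPS 1.00, SE 0.09, adjusted p = 1.02e-06). Leaving out the barely detected Nqo1, Me1 had the largest change of the 10 genes, from 35.7 and 40.7 CPM to 84.1 and 87.5 CPM (1.17, SE 0.11, adjusted p = 1.97e-06). The oxidative branch of the pentose phosphate pathway, which makes NADPH, rose in both its dehydrogenases. Pgd reached 276.4 and 237.1 CPM (0.94, SE 0.12, adjusted p = 3.76e-05) and G6pdx 416.6 and 392.8 CPM (0.78, SE 0.10, adjusted p = 5.75e-05). Taldo1, of the non-oxidative branch, was at 313.3 and 286.9 CPM against 270.2 and 259.9 CPM and did not pass (0.18, 95% interval -0.05 to 0.41, adjusted p = 0.255). The upper end of that interval lies below the lower ends for Pgd (0.69), G6pdx (0.57), Cat (0.82) and Me1 (0.94).

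Nqo1 rose from 4 and 7 expected counts with LPS to 18 and 19 with 30 µM 6-shogaol, or 0.242 and 0.333 to 1.10 and 1.07 CPM (1.87, SE 0.46, adjusted p = 0.00749). The 10 µM 6-gingerol libraries had 8 and 8 counts. At 30 µM of 6-gingerol there were 12 and 8, and at 10 µM of 6-shogaol 7 and 8. The rise passed at a level of about 1 CPM, and it did not pass in DESeq2 (adjusted p = 0.0709) or without LPS replicate 1 (adjusted p = 0.0723). Between the 2 doses of 6-shogaol, 9 of the 10 genes rose from 10 to 30 µM, where 19.4% of all tested genes were called, 9.85% higher and 9.54% lower. Scaling by library totals gave 870 higher and 1434 lower genes in place of 1251 and 1212. Taldo1 did not pass (0.05, -0.18 to 0.29). Leaving out Nqo1, the largest dose step was that of Prdx1 (1.25, SE 0.16, adjusted p = 0.0001). Without 6-shogaol 10 µM replicate 1 or 2, 5 of the 10 genes passed in each case, and Txnrd1 (adjusted p = 0.0707 and 0.0689), Srxn1 (0.0707 and 0.0932), Txn1 (0.0588 and 0.0811) and Nqo1 (0.135 and 0.186) did not. Without 6-shogaol 30 µM replicate 1, Srxn1 (0.0745) and Nqo1 (0.111) were lost, and without replicate 2, Txnrd1 (0.0593), Txn1 (0.0869) and Nqo1 (0.129). The Nqo1 call was also lost without the count filter (0.0897).

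**Figure D2:**
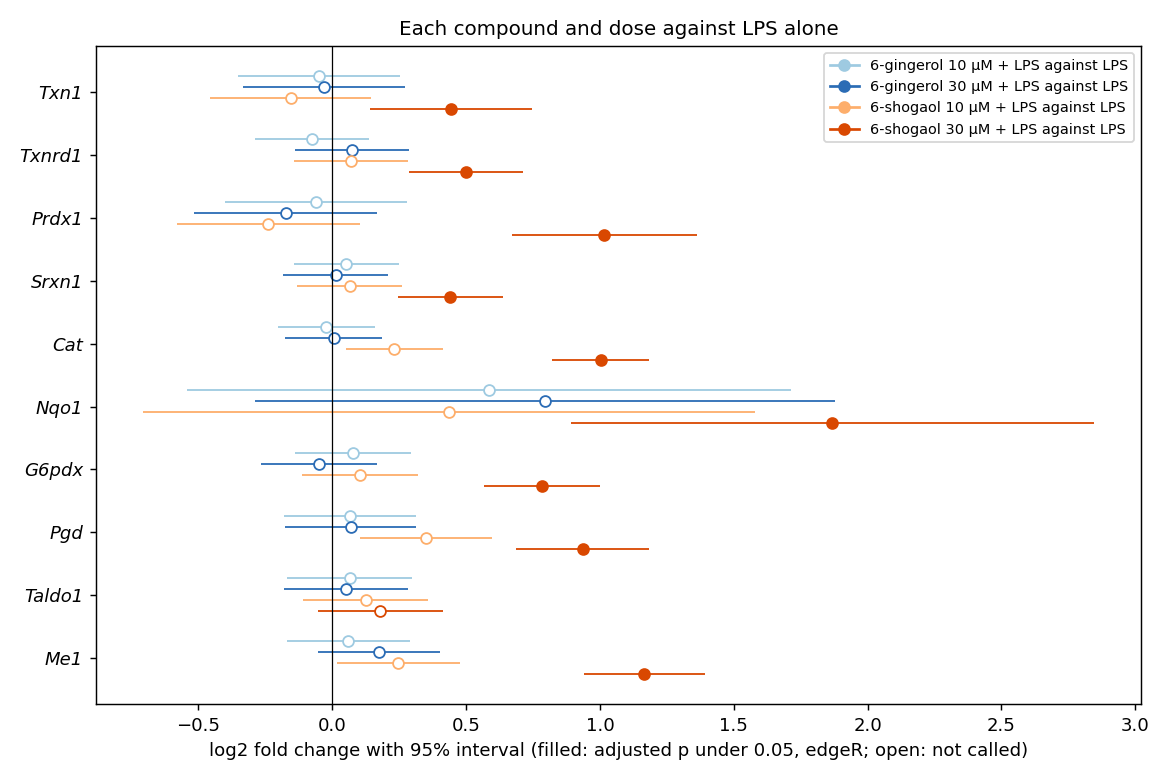
Log2 fold change of each gene against LPS alone for each compound and dose (horizontal axis), with 95% intervals from edgeR; filled points passed at an adjusted p under 0.05. Filled points appear only for 30 µM 6-shogaol, in every gene but Taldo1.

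Cells given LPS with 30 µM 6-shogaol were also set against untreated cells, which gives the distance covered by stimulus and compound together. Of the 10 genes 9 were higher and 0 lower, where 25.4% of all tested genes were called, 13.3% higher and 12.1% lower. The LPS and 6-shogaol comparisons share libraries with this one, so their values are set side by side and not tested against each other. Me1 was higher than in untreated cells by 2.25 in log2 units (SE 0.11, adjusted p = 3.67e-09), of which LPS alone gave 1.09. Cat was 1.85 higher (SE 0.09, adjusted p = 2.22e-09), with 0.85 under LPS alone. For Txnrd1 the values were 1.28 with 6-shogaol and 0.78 with LPS alone, and for Srxn1 1.20 and 0.76. The values were 1.41 and 0.40 for Prdx1, 1.12 and 0.19 for Pgd, and 1.14 and 0.36 for G6pdx. Txn1 was 0.89 higher than in untreated cells (SE 0.14, adjusted p = 0.000389). Taldo1 was 0.12 from untreated (95% interval -0.12 to 0.35). For Nqo1 the log2 fold change of 3.39 (2.21 to 4.57) rests on 4 counts summed over the untreated libraries.

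**Figure D3:**
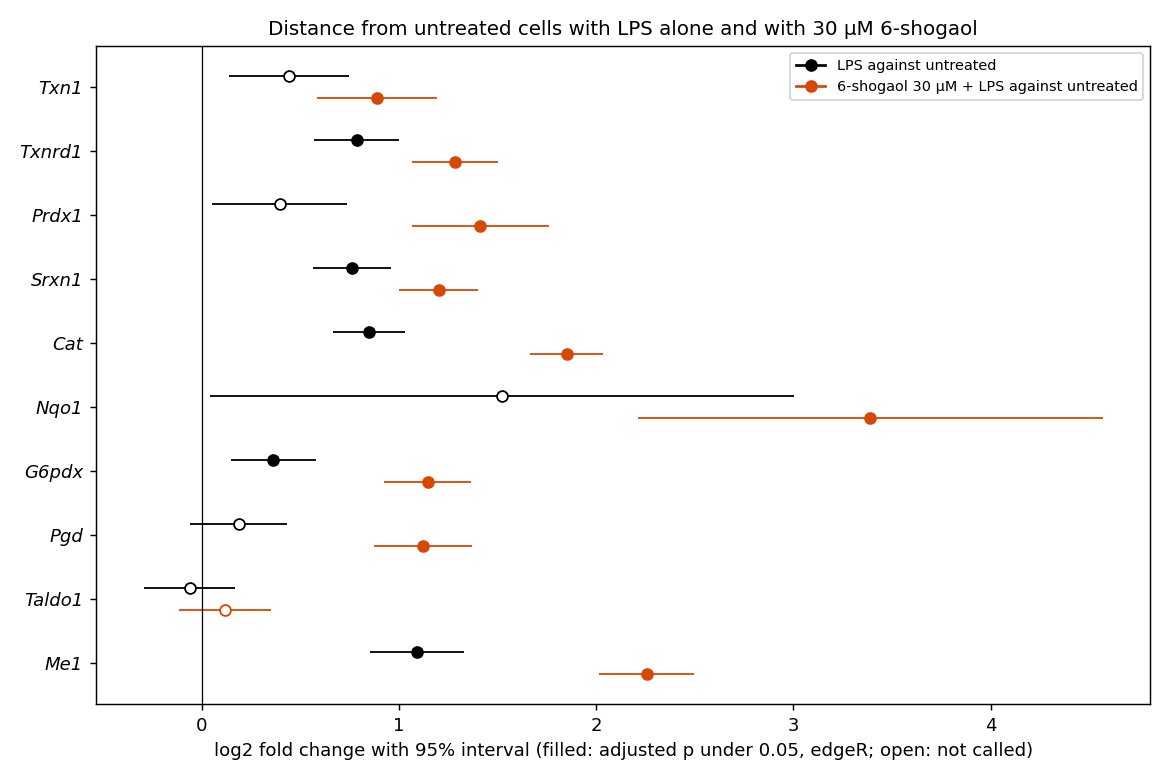
Log2 fold change from untreated cells (horizontal axis, 95% intervals from edgeR) with LPS alone and with LPS plus 30 µM 6-shogaol; filled points passed at an adjusted p under 0.05. Leaving out Nqo1, the points lie farthest apart for Me1, Prdx1, Cat and Pgd, and closer for Txnrd1, Srxn1 and Txn1. For Taldo1 both lie at 0 within error.

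The compounds were compared directly at each dose. At 10 µM, 6-shogaol and 6-gingerol differed in 0 of the 10 genes in edgeR, where 0.638% of all tested genes differed (0.0787% higher and 0.559% lower with 6-shogaol), and in 0 with DESeq2. Over all genes this was 10 higher and 71 lower, and 21 and 48 when scaled by library totals. Unadjusted p was under 0.05 in 2, Cat (0.25 higher with 6-shogaol, 95% interval 0.07 to 0.44) and Pgd (0.29, 0.04 to 0.53). For Txnrd1 the interval of the difference was -0.07 to 0.36, for Srxn1 -0.18 to 0.21, for G6pdx -0.19 to 0.24 and for Prdx1 -0.52 to 0.16. At 30 µM, 8 of the 10 genes were higher with 6-shogaol than with 6-gingerol, where 25% of all tested genes differed, 12.5% higher and 12.4% lower. Prdx1 had the largest of these differences at 1.19 (SE 0.16, adjusted p = 9.78e-05), followed by Cat at 1.00 (SE 0.09, adjusted p = 1.21e-06) and Me1 at 0.99 (SE 0.11, adjusted p = 9.33e-06). Pgd differed by 0.87 (SE 0.12) and G6pdx by 0.83 (SE 0.10), both called. Txn1, Txnrd1 and Srxn1 differed by 0.47, 0.43 and 0.43 (adjusted p = 0.0234, 0.00604 and 0.0034). The Txnrd1 call was lost without 6-gingerol 30 µM replicate 2 (adjusted p = 0.0605), and that of Txn1 without 6-gingerol 30 µM replicate 1 (0.244) or 6-shogaol 30 µM replicate 2 (0.156). Nqo1 (1.07, 95% interval 0.20 to 1.95, adjusted p = 0.0694) and Taldo1 (0.13, -0.10 to 0.36) did not pass.

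Whether raising the dose from 10 to 30 µM acted differently for the compounds was tested as the difference between their dose steps. It was called, and larger for 6-shogaol, in 5 of the 10 genes, where 8.17% of all tested genes were called, 4.27% larger and 3.9% smaller for 6-shogaol. Scaling by library totals gave 262 larger and 759 smaller in place of 542 and 496, and called 4 of the 10 genes. The difference was 1.37 for Prdx1 (SE 0.23, adjusted p = 0.00234), 0.81 for G6pdx (SE 0.14, adjusted p = 0.00356), 0.81 for Me1 (SE 0.15, adjusted p = 0.00501), 0.74 for Cat (SE 0.12, adjusted p = 0.0019) and 0.58 for Pgd (SE 0.16, adjusted p = 0.0404). The Pgd call did not survive leaving out any of 7 of the 8 libraries in turn, with adjusted p from 0.0545 to 0.152; without 6-gingerol 10 µM replicate 2 it held. Scaling by library totals alone lowered the median of all genes by about 0.15 in this comparison and gave 0.43 for Pgd (adjusted p = 0.132). Srxn1 (0.41, 95% interval 0.14 to 0.69), Txn1 (0.58, 0.15 to 1.01) and Txnrd1 (0.28, -0.02 to 0.58) did not pass in edgeR. DESeq2 called Srxn1 (adjusted p = 0.0491) and Txn1 (0.0366). Srxn1 also passed without 6-gingerol 10 µM replicate 2 (0.0494). Txn1 passed without the count filter (0.0103), with the compared groups alone (0.0386), with the fragment length covariate (0.0254) and without 6-gingerol 30 µM replicate 2 (0.0348).

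**Figure D4:**
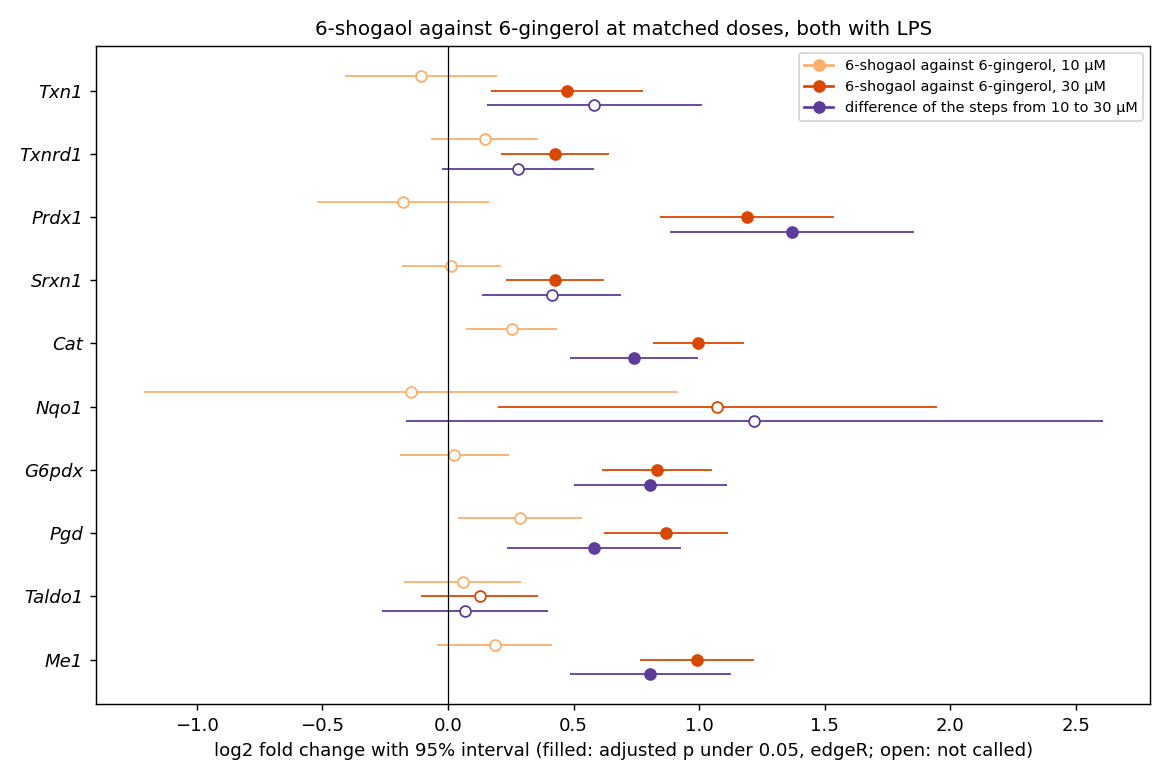
Log2 difference of 6-shogaol from 6-gingerol (horizontal axis, 95% intervals from edgeR) at 10 µM, at 30 µM, and the difference between their steps from 10 to 30 µM; filled points passed at an adjusted p under 0.05. No gene passed at 10 µM, 8 passed at 30 µM, and 5 passed for the difference of the steps.

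Because the members share a known regulator and 9 of the 10 rose at 30 µM 6-shogaol, their promoters were searched for the core of the antioxidant response element, TGACNNNGC, on both strands, from 250 bases before to 50 bases after each start in RefSeq (GRCm38.p6). All 10 genes matched an entry, with 14 windows in all. The motif was found for 6 of the 10 genes, against 13.99% of 27025 genes in the table, and in 12.4% of all windows of that length. The genes were listed as known NRF2 targets, so this comparison was partly set by their choice and is a description. The motif lay fully upstream of a RefSeq start in Txnrd1, Prdx1 and G6pdx. These 3 genes rose with 30 µM 6-shogaol, as did genes without a match. These stretches are shown on the strand of the gene, 5′ to 3′, with the matched letters in capitals and 30 bases on either side. All 3 matches read GCNNNGTCA, the reverse complement of the motif.
Txnrd1, chr10:82859084-82859152, plus strand: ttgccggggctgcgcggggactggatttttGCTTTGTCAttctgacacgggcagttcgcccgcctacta
Prdx1, chr4:116685436-116685504, plus strand: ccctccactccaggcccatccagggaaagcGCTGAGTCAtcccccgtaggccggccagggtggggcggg
G6pdx, chrX:74428899-74428967, minus strand: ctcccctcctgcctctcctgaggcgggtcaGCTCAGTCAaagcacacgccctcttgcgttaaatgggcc
The match ended 83 bases before that RefSeq start in Txnrd1, 124 bases before it in Prdx1 and 48 bases before it in G6pdx. The Txnrd1 element lay before the second of 3 annotated RefSeq starts. The Txnrd1 and G6pdx stretches lie inside the gene spans given below from GENCODE M21. There the upstream end of G6pdx is 74429194, and the G6pdx match is not upstream of it. In Me1 the match crossed a RefSeq start, and in Srxn1 and Pgd it lay after a RefSeq start. No match was found in these windows for Txn1, Cat, Nqo1 and Taldo1, of which Txn1, Cat and Nqo1 rose with 30 µM 6-shogaol. A match is a description of the sequence, and binding was not measured.

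Relatives of these genes were described from 5 further lists, to be read against the 12.6% of all tested genes that rose and the 12.8% that fell with 30 µM 6-shogaol. Of 19 tested relatives of thioredoxin and peroxiredoxin, 4 rose and 4 fell with 30 µM 6-shogaol against LPS (median 0.06, against -0.002 over all tested genes). Prdx5, a peroxiredoxin found in mitochondria and other compartments, went from 567.2 ± 8.75 to 303.6 ± 35.1 CPM (log2 difference -0.90, SE 0.12, adjusted p = 5.75e-05). It had risen by 1.34 with LPS (adjusted p = 1.2e-06), so that its direction with 6-shogaol was opposite to that of Prdx1. Nxn, nucleoredoxin, rose by 0.84 and Sesn1, a sestrin, by 0.69, while the stress-induced sestrin Sesn2 fell by 0.67. With LPS alone 1 of the 19 rose, Prdx5, and 0 fell, a share close to the 7.66% and 4.16% of all tested genes.

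Of 14 other NADPH supply genes 6 rose and 0 fell with 30 µM 6-shogaol (median 0.27), where 12.6% of all tested genes rose and 12.8% fell (median -0.002). Idh1, the cytosolic isocitrate dehydrogenase, which also makes NADPH, had the largest change, from 98.7 ± 3.42 to 179.4 ± 15.6 CPM (0.86, SE 0.12, adjusted p = 9.33e-05). Mthfd1, a folate-cycle enzyme, rose by 0.61 (adjusted p = 0.000218), H6pd, the glucose-6-phosphate dehydrogenase of the endoplasmic reticulum, by 0.49 (adjusted p = 0.0251), and Tkt, the transketolase of the non-oxidative branch, by 0.40 (adjusted p = 0.0451). With LPS against untreated, 0 of the 14 rose and 0 fell, where 7.66% of all tested genes rose and 4.16% fell. The median difference of the 14 was -0.10, against -0.03 over all tested genes.

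Among 6 tested genes of peroxide and superoxide removal, 2 rose and 2 fell with 30 µM 6-shogaol (median 0.18), beside 12.6% and 12.8% of all tested genes (median -0.002). The cytosolic superoxide dismutase Sod1 and its copper chaperone Ccs both rose by 0.40 (adjusted p = 0.0213 and 0.0179). Sod2, the mitochondrial superoxide dismutase, which rose by 1.49 with LPS, fell by 0.50 (adjusted p = 0.0035) to 837.6 ± 2.46 CPM, and the glutathione peroxidase Gpx1 fell by 0.38 (adjusted p = 0.00793). Of 9 quinone and carbonyl reductases and related enzymes 4 rose and 0 fell (median 0.39), against the same shares: Blvrb, a biliverdin and flavin reductase (0.84), Ephx1, an epoxide hydrolase (0.82), Ptgr1, a reductase of electrophilic lipids (0.80), and the aldo-keto reductase Akr1b8 (0.39). Ephx1 was also the only gene of these 5 lists called at 10 µM of 6-shogaol, at 0.57 (adjusted p = 0.0276).

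Of 15 genes of NRF2 control and the glutathione branch 5 rose and 4 fell with 30 µM 6-shogaol (median -0.24), against 12.6% and 12.8% of all tested genes (median -0.002). The subunits of glutamate-cysteine ligase, the first enzyme of glutathione synthesis, both rose, Gclc by 1.20 (adjusted p = 1.49e-05) and Gclm by 1.14 (adjusted p = 9.23e-07). Maff, a small MAF protein that partners NRF2, fell by 1.25 (adjusted p = 2.4e-05) after rising by 1.66 with LPS, and Sqstm1, the autophagy receptor that binds KEAP1, went from 759.5 to 391.8 CPM (adjusted p = 1.54e-05). With LPS alone 6 of the 15 rose and 0 fell, where 7.66% of all tested genes rose and 4.16% fell.

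Over the 12 libraries, the members whose log2 levels followed Txnrd1 most closely were Me1 (Pearson r = 0.98), Cat (0.96), Srxn1 (0.95) and Nqo1 (0.95). G6pdx, Txn1, Pgd and Prdx1 followed at 0.84, 0.80, 0.79 and 0.70, and Taldo1 at 0.25. Among the other genes with the highest correlation were Slc7a2, an arginine transporter (0.98), Lrp8, a lipoprotein receptor (0.98), Zdhhc12, a palmitoyltransferase (0.98), and Gsr, glutathione reductase (0.98). Gsr uses NADPH to recycle glutathione, and went from 31.4 CPM in untreated cells to 89.5 CPM with LPS and 161.6 CPM with 30 µM 6-shogaol. These points are 12 libraries of 6 groups that share their untreated and 30 µM 6-shogaol extremes, and the values are a description without a test.

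The genes lie on 7 chromosomes in GENCODE M21 on GRCm38, the build named in the submitters' processing notes, and all are protein-coding. Txnrd1 (ENSMUSG00000020250) is on chromosome 10, 82833951 to 82897712. Prdx1 (ENSMUSG00000028691, 116685544 to 116700822), Txn1 (ENSMUSG00000028367, 57943373 to 57956411) and Pgd (ENSMUSG00000028961, 149149991 to 149166771) are on chromosome 4. Srxn1 (ENSMUSG00000032802, 152105516 to 152111376) and Cat (ENSMUSG00000027187, 103453849 to 103485160) are on chromosome 2. Me1 (ENSMUSG00000032418) is on chromosome 9, 86581371 to 86695953, Nqo1 (ENSMUSG00000003849) on chromosome 8, 107388225 to 107403206, and Taldo1 (ENSMUSG00000025503) on chromosome 7, 141392199 to 141402968. G6pdx (ENSMUSG00000031400) is on chromosome X, 74409483 to 74429194. It overlaps Ikbkg, a subunit of the kinase that activates NF-kB, on the opposite strand, and whether reads were counted by strand is not given in the sources used here. G6pd2, a near copy of G6pdx, had 0 or 1 counts per library, so the G6pdx values hold nearly all reads of the pair. Expected counts were not whole in 7 of 12 libraries for Prdx1, in 5 for Me1 and in 1 for G6pdx, as an estimate gives where reads are divided between sequences.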

How the data were processed

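RNA sequencing libraries (TruSeq stranded mRNA, paired-end, NovaSeq X, per the labels' protocols) of 6 groups of 2 were analysed from the deposited per-library RSEM gene tables. Per the file headers these hold the expected count (estimated reads per gene), TPM made by RSEM, and gene length and effective length in bases, from which mean fragment length was obtained. Per the submitters' processing notes the authors used RSEM 1.3.3 and STAR 2.7.11b, also DESeq2 1.44.0 in R 4.4.2, FastQC 0.12.1, Trimmomatic 0.39 and the build GRCm38; the role of each and the annotation are not given in the sources used here. A deposited table of 12 normalized columns was not used here, since its normalization is not stated.

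Expected counts were rounded, filtered with filterByExpr (minimum count 10; 12705 genes kept), scaled by TMM in edgeR 4.0.16 (R 4.3.3) and fitted with 6 group means over all 12 libraries (6 residual degrees of freedom, common biological coefficient of variation 9.45%). Quasi-likelihood F tests with robust dispersion were run for 10 contrasts, 2-sided. P-values were adjusted by Benjamini-Hochberg over all genes tested in a contrast, and calls are those under 0.05. Intervals are 95%. CPM are TMM-scaled. The script was tested on simulated data. Symbols were matched for 97.8% of identifiers. The members and lists were chosen with earlier results of these data known. Every member is named; from each list, up to 4 called genes with the largest change at 30 µM 6-shogaol and a mean of at least 5 CPM; and the 5 genes most correlated with Txnrd1 (log2 CPM, prior count 2), of which 1 is not reported here. Alternatives were DESeq2 1.42.0, other scaling, no filter, fewer groups, a replicate block, fragment length, and leaving out each library.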

Additional observations from a re-analysis of the deposited data

Results flagged for a closer look

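In 5 of the 10 genes the step from 10 to 30 µM differed between the compounds by its own test in edgeR. The log2 difference, 6-shogaol minus 6-gingerol, was 1.37 for Prdx1, 0.81 for G6pdx, 0.81 for Me1, 0.74 for Cat and 0.58 for Pgd. With scaling by library totals the edgeR call for Pgd was lost (0.43, adjusted p = 0.132). In each of the 5 genes both 30 µM 6-shogaol libraries lay above both 10 µM 6-shogaol libraries. The same was true of Txnrd1, Srxn1, Txn1 and Nqo1, for which the difference of the steps was not called. That ordering describes the 6-shogaol step only, and how many of all tested genes show it was not counted. The groups of 2 libraries were too small to look for single libraries standing apart.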

How the results depend on the processing

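Over 100 values (10 genes in 10 comparisons) and 1131 alternatives, 36 calls were lost, 17 were gained and 0 reversed direction. Calls lost or gained without a given library are named with the results above; the lone library left in such a group was assumed to vary like the other groups. Leaving out each library in turn, the number of the 10 genes called ran from 4 to 7 for LPS against untreated, 7 to 8 for 30 µM 6-shogaol against LPS, 7 to 8 against 30 µM 6-gingerol, 5 to 7 against 10 µM 6-shogaol, 9 to 9 against untreated and 4 to 6 for the difference of dose steps, and was 0 to 0 elsewhere. Over all genes tested, the same ranges were 768 to 1602 for LPS (1501 with all libraries), 0 to 0 for 10 µM and 0 to 1 for 30 µM 6-gingerol (0 and 0), 18 to 44 for 10 µM (81) and 1827 to 2171 for 30 µM 6-shogaol against LPS (3222), 16 to 49 between the compounds at 10 µM (81), 1807 to 2157 at 30 µM (3171), 960 to 1685 between the 6-shogaol doses (2463), 1980 to 3176 for 30 µM 6-shogaol against untreated (3229) and 300 to 839 for the dose steps (1038).

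Without the count filter the counts over all genes became 28 and 27 for 10 and 30 µM 6-gingerol, 311 for 10 µM 6-shogaol against LPS and 419 between the compounds at 10 µM. Fitting the compared groups alone gave 5 for 30 µM 6-gingerol, 970 for 10 µM 6-shogaol (with 2 of the 10 genes), 152 between the compounds at 10 µM and 2092 for 30 µM 6-shogaol against untreated. DESeq2 gave 2 for 30 µM 6-gingerol and 173 between the compounds at 10 µM, and the fragment length covariate gave 48 for 10 µM 6-shogaol. The cause of these shifts was not tested. Library totals moved the median of all genes by over 0.1 in the dose steps (to -0.15) and between the compounds at 10 µM (to 0.10). DESeq2 gave no adjusted p for Nqo1 in 4 comparisons, and with the compared groups alone Nqo1 had no value in 5; these were left out.

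Same-numbered libraries were not paired: over 15 pairs of groups their deviations correlated from -0.31 to 0.18, with 5 over 0.1. With the replicate number as a block, the count over all genes was 1541 for LPS, 3262 for 30 µM 6-shogaol against LPS, 3242 between the compounds at 30 µM and 1032 for the dose steps, and the number of the 10 genes called was the same in all 10 comparisons.

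Depth limits Nqo1 most, with at most 19 counts in a library. The median 95% interval reached 0.29 on the log2 scale to either side, and 0.41 for the dose steps, so smaller changes were often not detectable.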

Other observations

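Several relatives outside the naming rule were chosen for mention after their values were seen. In the peroxiredoxin family Prdx2, Prdx3, Prdx4 and Prdx6 differed from LPS with 30 µM 6-shogaol by 0.22, 0.21, 0.03 and 0.22 on the log2 scale, none of them called, beside the rise of Prdx1 and the fall of Prdx5. Txnip, which binds and inhibits thioredoxin, fell from 440.2 ± 17.9 to 304.1 ± 9.55 CPM (-0.53, adjusted p = 0.0023), and the reductase Txnrd3 fell by 0.49, while the mitochondrial reductase Txnrd2 differed by -0.07. Keap1, the repressor of NRF2, rose by 0.76 (adjusted p = 0.00117), and Nfe2l2, which encodes NRF2, differed by -0.24 (adjusted p = 0.142). Heme oxygenase Hmox1, another NRF2 target, was at 433.3 ± 58.1 CPM against 524.5 ± 25.0 CPM with LPS (-0.28, adjusted p = 0.0753).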
